A study of Homo sapiens with 30 samples.

Results

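ROR2 and its partners in noncanonical WNT signalling and planar cell polarity were followed through the differentiation of human embryonic stem cells into heart muscle. The 10 genes were taken by exact symbol from the tables of the series: 3 ligands (WNT5A, WNT5B and WNT11), 2 receptors (ROR1 and ROR2) and 5 core polarity proteins (VANGL1, VANGL2, PRICKLE1, PRICKLE2 and CELSR1). All 10 were found among the 41495 entries of the time-course table, 7 among the 4648 genes of the D3 sort table and 5 among the 4825 genes of the D4 sort table. H7, an established line of human embryonic stem cells (hESC), was the starting material and the only line used. The cells received 12 µM CHIR99021, an inhibitor of the kinase GSK3 that switches on canonical WNT signalling, for 24 hours. They then received 5 µM IWP4, an inhibitor of WNT secretion, for 2 days. The day on which IWP4 began is not given here, so columns from D1 on are not placed before, under or after it. The 11 time points are hESC, days 1, 2, 3, 4, 5, 6, 8, 10 and 15 (D1 to D15), and day 31 cardiomyocytes (CM) purified on Percoll, each with 2 libraries. At D3 the cells were sorted into ROR2-positive (PMESO) and ROR2-negative cells. At D4, CMESO cells positive for ROR2 and PDGFRa were set against ROR2-positive, PDGFRa-negative cells, so both D4 populations carry ROR2.

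In noncanonical signalling, WNT5A and related ligands bind ROR receptor kinases and Frizzled proteins and act on cell shape and movement without stabilising beta-catenin. The core polarity proteins form asymmetric complexes at cell borders, with VANGL and PRICKLE on one side, Frizzled and Dishevelled on the other, and the cadherin CELSR bridging both. In vertebrate embryos these genes are known for convergence and extension movements at gastrulation and for the growth of the outflow tract of the heart.

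The deposited values were read as FPKM, fragments scaled to transcript length and library size, which allows a rough comparison of levels between genes. The scaling used is not given in the sources used here. Summed over all entries, the columns ranged from 617580 at D15 to 1.43e+06 in hESC. Each table gives 1 value per gene and group, with both libraries joined. Time-course differences therefore have no replicate error and no test, and higher and lower mean a difference of 1 or more (2-fold) in log2(FPKM + 1). Read totals are not given in the tables, so no counting interval can be set. The median of 12146 genes above 1 FPKM in every column was 1.127 times the average column at D1 and 0.765 times at D15, which shifts log2 values by 0.17 and -0.39. The other columns shifted by between -0.02 and 0.10. Marker genes went with the labels: the summed FPKM of 5 pluripotency markers was 2598 in hESC and 4.90 in CM, and that of 5 cardiomyocyte markers was 15.1 and 11031. Cultures were unsorted up to D15, and in such bulk samples fewer cells of a type and less RNA per cell cannot be told apart.

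The ligands peaked one after another. WNT5B, a close relative of WNT5A, stood at 1.69 FPKM in hESC and at 146.9 at D1, an 86.7-fold ratio and the largest range of the 10 genes. Its level was 34.5 at D2, 11.4 at D3 and 2.99 at D4, and then 4.45 at D5, 9.71 at D8 and 17.4 in CM. The WNT5B peak thus lay in a single column, with every later column at or below the D2 level. WNT5A, the best known ROR2 ligand, stood at 1.11 in hESC, 2.20 at D1, 33.7 at D2 and 31.7 at D3. From D4 to CM it kept within 17.7 (D4) and 27.0 (D10). WNT11, a ligand of heart and gastrulation movements, was low early, with 2.42 in hESC, 1.10 at D1 and its lowest value, 0.895, at D3. It stood at 3.41 at D6, 6.13 at D8, 11.6 at D15 and 11.2 in CM. The summed FPKM of the ligands was 5.23 in hESC, 150 at D1, 69.3 at D2 and 22.8 at D4.

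The receptors exchanged order between hESC and D2. ROR1, a receptor tyrosine kinase-like protein, stood at 21.7 FPKM in hESC and was the highest of the 10 genes there. Over the course it ranged from 9.52 at D3 to 23.2 at D6, with a median of 16.9. ROR2 stood at 1.66 in hESC, 9.66 at D1, 32.9 at D2, 29.03 at D3 and 38.2 at D4, its peak, a ratio of 23.0 between highest and lowest. It then stood at 32.2 at D5, 24.0 at D6, 19.4 at D8, 16.7 at D10, 18.6 at D15 and 18.9 in CM. The sort marker was therefore present in every later column, and CM held more of it than hESC or D1. With no replicate values, neighbours in this order such as D15 and CM cannot be told apart. ROR2 made up 7.12% of the receptors' summed FPKM in hESC, 75.3% at D3, 50.8% at D6 and 52.7% in CM.

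In log2(FPKM + 1), VANGL1 alone of the core polarity genes had a step of 2-fold between neighbouring time points. VANGL1, a membrane protein of the polarity complex, stood at 2.41 FPKM in hESC, 18.2 at D1, 16.8 at D2 and 8.52 at D3, and reached 2.73 at D15. VANGL2, its paralogue, ranged from 8.82 at D3 to 14.9 in hESC and had the smallest range of the 10 genes (1.69 times). PRICKLE1, a LIM-domain protein that binds VANGL, stood at 14.6 in hESC, 43.0 at D3, 23.3 at D5, 39.3 at D15 and 50.1 in CM. It was the highest of the 10 genes at D3 and from D6 to CM. PRICKLE2 ranged from 1.35 at D1 to 8.68 in CM and stayed below PRICKLE1 at every time point. Its plain FPKM ratio was 2.21 at D2 against D1 and 2.07 at D4 against D3, which fell short of the threshold once 1 FPKM was added. CELSR1, the polarity cadherin, stood between 3.43 and 7.18 from hESC to D10, at 13.0 at D15 and at 17.5 in CM. VANGL1 therefore had an early peak, while CELSR1, PRICKLE1 and PRICKLE2 were at their highest in CM. With columns rescaled to a common median, CM against D15 differed by -0.05 for PRICKLE1, 0.04 for CELSR1 and 0.19 for PRICKLE2. The order of D15 and CM for PRICKLE1 thus depends on column scale.

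**Figure D1:**
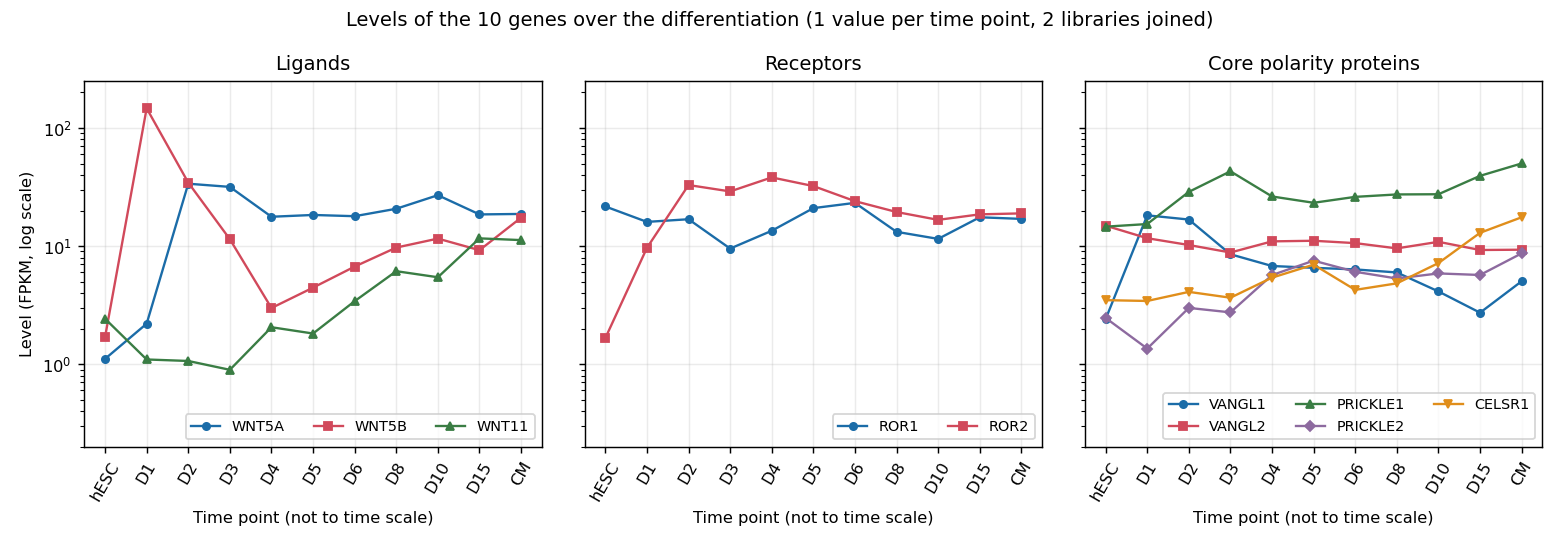
FPKM (log axis) of the 3 ligands, 2 receptors and 5 core polarity genes at each of the 11 time points, in order and not to time scale; each point is the authors' value for both libraries joined, so there are no error bars. WNT5B peaks at D1 (146.9), WNT5A at D2 (33.7) and ROR2 at D4 (38.2), and PRICKLE1 and CELSR1 are highest in CM in these values without rescaling of columns.

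The PRICKLE1 and PRICKLE2 levels carry a limit that most of the others do not. In GENCODE 29, 3 of the 10 genes share exon sequence with genes on the opposite strand (WNT11, PRICKLE1 and PRICKLE2), and 7 do not. WNT11 overlaps AP000785.1, for which no value is given here. The counting of strand is not given in the sources used here, so reads of such a pair may not be told apart. RP11-328C8.4, which lies opposite PRICKLE1 and is matched by gene ID, stood at 38.5% to 58.6% of the PRICKLE1 level at every time point. Across the 11 time points its log2 values had a Pearson r of 0.94 with those of PRICKLE1, as a description of 2 genes that share a locus. PPHLN1, whose exons also overlap PRICKLE1, stood between 20.0 and 53.1 FPKM, or 50.9% to 334% of the PRICKLE1 level, with r of -0.21. PRICKLE2-AS1 stood at 9.87% to 29.7% of the PRICKLE2 level, reaching 1.73 FPKM, with r of 0.77 over the same time points.

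Within 3 of 4 paralogue pairs the leading gene changed. WNT5A was 1.48% of the summed FPKM of WNT5A and WNT5B at D1, 49.5% at D2, 85.6% at D4 and 51.8% in CM. WNT5B was 66.8 times WNT5A at D1. VANGL1 was 13.9% of the VANGL pair in hESC, 61.0% at D1, 62.2% at D2 and 22.7% at D15. PRICKLE2 was the lower member of its pair throughout, at 6.001% (D3) to 24.4% (D5). The ligand and receptor pairs thus passed through D3 and D4 with WNT5A and ROR2 ahead, whereas the VANGL pair led with VANGL1 at D1 and D2 and with VANGL2 elsewhere.

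**Figure D2:**
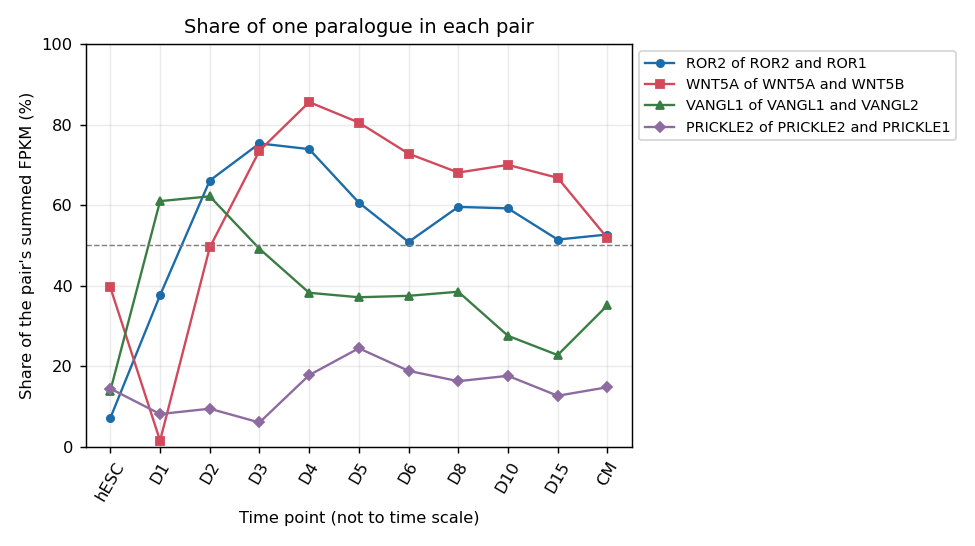
Share (%) of the first-named gene in the summed FPKM of each paralogue pair at the 11 time points, with a dashed line at equal levels; points are single values with no error bars. ROR2 goes from 7.12% in hESC to 75.3% at D3, and WNT5A from 1.48% at D1 to 85.6% at D4.

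Step by step, every difference of 2-fold in log2(FPKM + 1) lay between hESC and D4. From hESC to D1, 3 of 10 genes were higher (WNT5B, VANGL1 and ROR2) and 0 lower, where 12.0% of the 21715 genes with at least 1 FPKM somewhere were higher and 11.1% lower. The difference in log2(FPKM + 1) was 5.78 for WNT5B, 2.50 for VANGL1 and 2.00 for ROR2. In plain FPKM, WNT11 was 2.21 times higher in hESC than at D1, but on the log2(FPKM + 1) scale it differed by -0.71. From D1 to D2, WNT5A (3.44) and ROR2 (1.67) were higher and WNT5B (-2.06) was lower, where 2.66% of genes were higher and 2.34% lower. WNT5B alone was lower from D2 to D3 (-1.51) and from D3 to D4 (-1.64), and 0 genes of the 10 were higher. Of all genes, 5.04% were lower and 3.09% higher in the former step, and 6.3% were lower and 6.79% higher in the latter. Between D4 and CM no neighbouring step reached 2-fold on this scale for any of the 10, at background shares of 4.94% (D5 against D4), 7.4% (D6 against D5), 2.01% (D8 against D6), 2.27% (D10 against D8), 15.8% (D15 against D10) and 11.3% (CM against D15). The nearest were WNT11 at D15 against D10 (0.97), WNT5B at CM against D15 (0.85), and CELSR1 at D15 against D10 (0.77) with ROR1 at D8 against D6 (-0.77). The plain FPKM ratio of WNT11 at D15 against D10 was 2.13. After rescaling the columns to a common median, WNT11 and CELSR1 at D15 differed by 1.32 and 1.12, so both passed. Between the ends of the course, 7 of 10 genes were higher in CM than in hESC and 0 lower, where 18.7% of all genes were higher and 16.9% lower. The exceptions were ROR1, VANGL1 and VANGL2, of which VANGL1 had a plain FPKM ratio of 2.09 and a difference of 0.83. The median difference of the 10 was 1.77, beside 0.03 for all genes kept. With D10 in place of CM, 3 of 10 were higher (WNT5A, WNT5B and ROR2), where 13.4% of all genes were. Over the whole course 9 of 10 genes had a 2-fold range, all but VANGL2, close to the 84.7% of all genes.

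**Figure D3:**
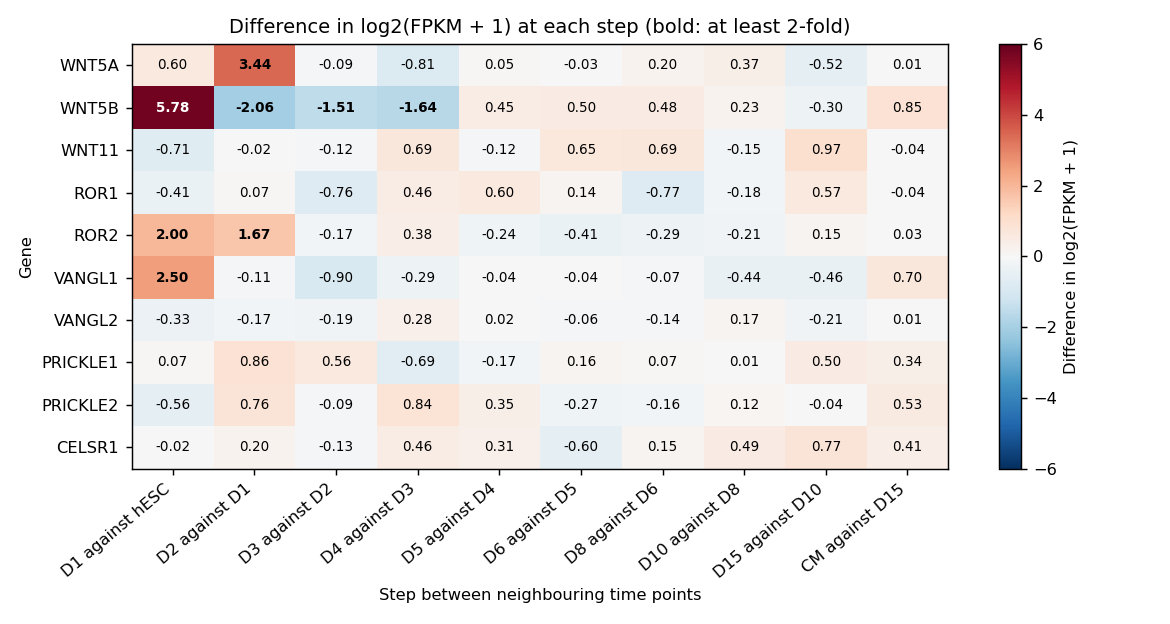
Difference in log2(FPKM + 1) of each gene (rows) at each of the 10 steps between neighbouring time points (columns), red for higher and blue for lower at the later time point; bold values are at least 2-fold. The bold cells all lie in the first 4 steps, from 5.78 for WNT5B at D1 against hESC to -2.06 for the same gene at D2 against D1.

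The steps with the largest differences also had large differences in markers of cell state. The summed FPKM of 3 primitive streak markers (T, MIXL1 and EOMES) was 1.04 in hESC, 416 at D1, 208 at D2 and 34.5 at D3. That of 4 early mesoderm markers was 10.0 at D1 and 222 at D2, and that of 5 endoderm markers 2.26 in hESC, 23.0 at D1 and 27.4 at D2. The endoderm sum at D1 was mostly FOXA2 (13.2) and APOA1 (7.99), with SOX17 at 0.886, FOXA1 at 0.628 and TTR at 0.306. At the late end, cardiomyocyte markers summed to 3504 at D10, 7201 at D15 and 11031 in CM, and 5 stromal markers to 851, 3010 and 931. None of these markers was listed at 0 at any time point, and PECAM1 of the endothelial list was not matched in the table. The part of such cells in the levels of the 10 genes was not tested.

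RefSeq promoter entries (GRCh38.p14) were found for 8 of the 10 genes, all but WNT11 and CELSR1, as 12 windows. The 250 bases before the start are shown for ROR2 and WNT5A, which were both higher at D2 than at D1, and for VANGL1, the core gene that peaked at D1. Windows that touch annotated exons are not printed. The windows are ROR2 at chr9:91950229-91950478 (minus strand), the second WNT5A start at chr3:55481399-55481648 (minus strand) and the second VANGL1 start at chr1:115642379-115642628 (plus strand). Capitals mark a match to the T-box letters GGTGTGA on either strand.
ROR2: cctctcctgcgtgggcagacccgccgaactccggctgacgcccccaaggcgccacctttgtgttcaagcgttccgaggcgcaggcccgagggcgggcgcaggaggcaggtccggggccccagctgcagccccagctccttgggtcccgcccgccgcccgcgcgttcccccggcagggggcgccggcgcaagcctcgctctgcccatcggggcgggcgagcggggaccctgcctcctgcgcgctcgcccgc
WNT5A: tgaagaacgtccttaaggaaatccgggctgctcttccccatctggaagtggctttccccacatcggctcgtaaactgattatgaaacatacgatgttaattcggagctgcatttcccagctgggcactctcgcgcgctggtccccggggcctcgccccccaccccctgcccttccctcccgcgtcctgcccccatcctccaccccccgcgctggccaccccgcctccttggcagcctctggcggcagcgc
VANGL1: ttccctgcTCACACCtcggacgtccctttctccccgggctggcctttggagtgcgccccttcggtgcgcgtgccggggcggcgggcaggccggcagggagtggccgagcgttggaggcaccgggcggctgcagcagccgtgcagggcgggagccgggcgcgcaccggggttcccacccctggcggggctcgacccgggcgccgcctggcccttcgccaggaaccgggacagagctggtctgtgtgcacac
Letter strings of TCF/LEF factors, the nuclear partners of beta-catenin, were searched on both strands. CTTTGTT is held by 4.50% of the 35116 windows of that length in the table. CTTTGTA is held by 2.35%, and CTTTGAT by 2.26%. CTTTGAA is held by 3.80%. At least 1 of these 4 strings is held by 11.96% of all windows and by 0 of the 12 windows here. The T-box letters matched 3 of the 12 windows (1 each for WNT5A, VANGL1 and PRICKLE2), against 2.76% of all windows. The VANGL1 match starts 242 bases before the start, as the reverse complement, and the WNT5A match lies in the window that is not printed. GC content was 78.0% in the ROR2 window, 64.4% in that of WNT5A and 75.6% in that of VANGL1, and the median of all windows was 58.0%. The ROR2 window held 32 CpG sites, against a median of 11.

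To see how the 10 genes divide between sorted populations, the authors' deposited tables were used, which list genes with a q-value under 0.05 only. Absence from a table does not mean equal levels. Intervals printed after gene names are the loci that the authors deposited, with the start made 1-based. Such a locus can span more than the gene, since PRICKLE1 and RP11-328C8.4 were given the same one. Each population had 2 libraries, and the labels do not say that they came from separate cultures, so the q-values may measure technical spread. In the D3 sort, WNT5A went with ROR2. ROR2 itself (chr9:94325373-94712444, hg19) stood at 5.90 FPKM in ROR2-negative and 72.0 in ROR2-positive cells, which checks the gate and is no finding. WNT5A (chr3:55499743-55523973) stood at 2.93 and 33.0, a ratio of 11.2 with a q-value of 0.000375 in the authors' deposited table, close to the 12.2 of the sort marker. A ratio of this size was not particular to WNT5A. Of the cell state markers, PDGFRA (13.5), MIXL1 (19.3) and APLNR (53.9) had larger ones. So did the early mesoderm marker MESP1, the endoderm marker SOX17 and the cardiomyocyte marker NKX2-5, all under 1 FPKM in ROR2-negative cells. Some other markers were lower in ROR2-positive cells. WNT11 (chr11:75897369-75921780) stood at 0.316 and 2.21 (ratio 7.01, q-value 0.00132). Of the 10 genes, 7 were called in that table, ROR2 included, where the background was 27.9% of about 16649 genes tested. Of these 6 were higher in ROR2-positive cells (15.4% of all genes tested) and 1 was lower (12.5%). The 6 include ROR2, whose direction was set by the gate, so it cannot be read against these shares. The others of the 6 are WNT5A, WNT11, VANGL1, PRICKLE2 and CELSR1.

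The core polarity genes differed less and not all one way. CELSR1 (chr22:46756731-46933067) stood at 3.37 FPKM in ROR2-negative and 5.68 in ROR2-positive cells (ratio 1.69), PRICKLE2 (chr3:64053640-64440508) at 2.096 and 3.57 (ratio 1.70), and VANGL1 (chr1:116184574-116240845) at 8.52 and 12.6 (ratio 1.48). Their q-values in the authors' deposited table were 0.00132, 0.00727 and 0.0113. PRICKLE1 (chr12:42632249-42984157) was the exception and was 3.40 times higher in ROR2-negative cells, with 46.1 against 13.6 and a q-value of 0.00217. RP11-328C8.4, given the same locus in the authors' deposited table, had nearly the same ratio (20.5 and 6.09 FPKM, 3.37 times higher in ROR2-negative cells). ROR1, WNT5B and VANGL2 are not listed in this table. Without the sort marker, WNT5A, WNT11 and PRICKLE1 were the called genes that differed at least 2-fold.

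The populations of the D3 sort also differed in cell state markers. All 5 pluripotency markers were lower in ROR2-positive cells in the authors' deposited table, their summed FPKM being 1091 in negative and 471 in positive cells. All 3 streak markers (9.49 and 71.8) and all 4 early mesoderm markers (9.87 and 219) were higher, as were the 3 listed of 5 endoderm markers (2.63 and 26.7). Of 4 epithelial markers, 3 were lower and 1 higher (432 and 410). Of 3 listed cardiomyocyte markers, MYL7 and NKX2-5 were higher and ACTC1 lower in ROR2-positive cells (sums of 151 and 144). Of 2 listed endothelial markers, KDR was higher and TEK lower (18.0 and 47.9). The 3 listed stromal markers were higher (6.06 and 14.8). None of the listed markers was at 0 in either population, and their part in the differences of the 10 genes was not tested.

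Among ROR2-positive D4 cells, 2 of 3 ligands were higher and 3 of 5 core polarity genes lower in PDGFRa-positive cells, and the other members were not listed. WNT5A stood at 6.07 FPKM in PDGFRa-negative and 44.3 in PDGFRa-positive cells (ratio 7.30), and WNT11 at 0.787 and 6.13 (ratio 7.79). PRICKLE2 stood at 18.8 and 4.56, CELSR1 at 10.9 and 4.50 and VANGL2 (chr1:160370376-160398468) at 14.8 and 9.83, that is 4.13, 2.43 and 1.51 times higher in the negative cells. The q-values were 0.000269 for WNT5A, WNT11, PRICKLE2 and CELSR1 and 0.000743 for VANGL2 in the authors' deposited table. Of the 10 genes, 5 were called, against 36.3% of about 13305 genes tested. They comprise 2 higher (17.2% of all genes tested) and 3 lower (19.0%) in PDGFRa-positive cells. ROR2, ROR1, WNT5B, VANGL1 and PRICKLE1 are not listed. The sort marker PDGFRA stood at 8.28 and 304.

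WNT5A and WNT11 were thus higher in the positive cells of both sorts, while PRICKLE2 and CELSR1 were higher in ROR2-positive cells at D3 and higher in PDGFRa-negative cells at D4. The gates differ between the sorts and the tables were normalized apart, so this difference was not tested. RP11-129B22.1, opposite PRICKLE2 and with the same locus, was also higher in PDGFRa-negative cells in the authors' deposited table, at 0.850 and 0.150 FPKM. Most but not all listed epithelial and endoderm markers were lower in PDGFRa-positive cells, as were the core genes PRICKLE2, CELSR1 and VANGL2. Among the lower markers, CDH1 stood at 41.9 in PDGFRa-negative and 3.90 in PDGFRa-positive cells and EPCAM at 134 and 19.6. FOXA2 stood at 23.0 and 3.16 and SOX17 at 10.1 and 2.30. As lists, 3 of 4 epithelial markers were lower and 1 (KRT8) higher, with sums of 731 and 1188, and of 4 listed of 5 endoderm markers 3 were lower and 1 (APOA1) higher (74.5 and 49.2). All 4 listed of 5 pluripotency markers were lower (500 and 308), with SOX2 at 13.7 and 0.529. All 5 cardiomyocyte markers were higher in PDGFRa-positive cells (42.1 and 592), as were WNT5A and WNT11. Of 4 listed stromal markers 3 were higher and 1 lower (32.4 and 248). Of 4 endothelial markers KDR alone was listed, at 4.18 and 163. In hESC of the time course KDR stood at 59.4, where the endothelial markers CDH5 and TEK stood at 0.725 and 0.484. No listed marker was at 0 in either D4 population, and their part in the differences of the ligands and core genes was not tested.

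**Figure D4:**
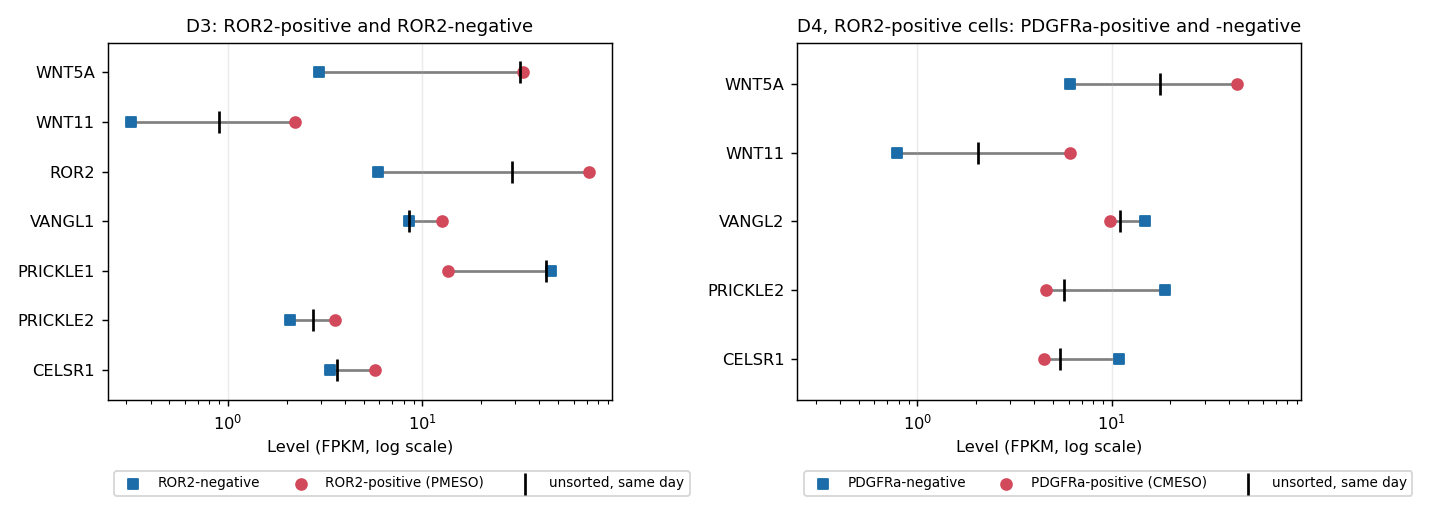
FPKM (log axis) of the listed genes in the negative (blue squares) and positive (red circles) population of the D3 sort (left, 7 genes) and the D4 sort (right, 5 genes), with the unsorted culture of the same day as a black tick. WNT5A and WNT11 are to the right in the positive cells of both panels, PRICKLE1 is higher in the negative cells at D3, and PRICKLE2 and CELSR1 change sides between the panels.

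The other genes of the pathway were read from 5 lists with 35 genes, all in the time-course table. FZD2, a Frizzled receptor, ranged from 1.82 FPKM in hESC to 31.1 at D15, and JUN from 9.42 at D2 to 140 in CM. From hESC to D1, 3 of 35 were higher and 2 lower (median 0.01), where 12.0% of all genes were higher and 11.1% lower. The higher ones were RYK, a WNT-binding pseudokinase receptor (34.2 and 80.9 FPKM), ROCK2, a kinase of the actomyosin cytoskeleton (8.14 and 28.9), and FJX1 (0.99 and 5.57). GPC4, a glypican co-receptor, stood at 182 and 60.2 and the transcription factor JUN at 64.8 and 11.2. From D1 to D2, where WNT5A and ROR2 were higher, 0 of 35 were higher or lower, against 2.66% and 2.34% of all genes. From D2 to D3, FZD6 was higher and FZD2 lower, against 3.09% and 5.04% of all genes. From D3 to D4, 4 were higher (FZD2, CELSR2, PRICKLE4 and JUN) and 1 lower (GPC4), against 6.79% and 6.3% of all genes. From D4 to D10, WDPCP alone passed, lower at D6, where 7.4% of all genes passed in either direction. The shares were 4.94% at D5 against D4, 2.01% at D8 against D6 and 2.27% at D10 against D8. From D10 to D15, FZD2 was higher and CDC42 and MAPK8 were lower, where 15.8% of all genes passed in either direction. From D15 to CM, 2 were higher (CDC42 and JUN) and 3 lower (FZD7, PTK7 and CELSR3), where 11.3% of all genes passed. In CM against hESC, 10 of 35 were higher and 5 lower, where 18.7% of all genes were higher and 16.9% lower, with a median of 0.36 against 0.03 for all genes. The receptors split, with the Frizzled receptors FZD2 (1.82 and 16.7) and FZD6 (4.13 and 20.3) higher and FZD7 (34.6 and 16.1) and GPC4 (182 and 22.4) lower. The core list also split, with CELSR2 and PRICKLE4 higher and CELSR3, DVL1 and DVL2, the last 2 being Dishevelled adaptors, lower. Of 13 effectors, 4 were higher and 0 lower, including DAAM1, a formin downstream of Dishevelled (15.5 and 70.6). FAT4 and DCHS1, a pair of giant cadherins that bind each other across cells, stood at 0.60 and 6.73 and at 2.02 and 21.4.

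In the D3 sort, 9 of the 35 pathway genes were listed in the authors' deposited table, 8 higher in ROR2-positive cells and 1 lower, where 27.9% of all genes tested were listed. The receptors FZD7 (31.6 and 64.4 FPKM) and PTK7, a polarity pseudokinase (49.8 and 88.9), and the formin DAAM1 (11.8 and 36.1) were higher, and FJX1 (3.38 and 0.986) was lower. Of the 9 core genes, DVL1 alone was listed (24.1 and 35.4). In the D4 sort, 13 of 35 were listed, 7 higher and 6 lower in PDGFRa-positive cells, where 36.3% of all genes tested were listed. All 4 listed core genes were lower: CELSR2 (12.9 and 4.65), CELSR3 (6.48 and 3.70), PRICKLE3 (2.75 and 1.41) and ANKRD6 (20.1 and 12.5), the same side as CELSR1, PRICKLE2 and VANGL2. All 3 listed effectors (DAAM1, CDC42 and JUN) and FAT4 (2.36 and 8.28) were higher. In all, 55.2% of genes in the D3 table and 47.5% in the D4 table were higher in the positive cells.

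The genes whose time course was most like that of ROR2 were sought among 9815 protein-coding genes that reached 10 FPKM and were never at 0. By Pearson r of log2(FPKM + 1) over the 11 time points they were ZEB2 (0.95), a repressor of epithelial genes, EFNB1 (0.93), an ephrin ligand, ZNF740 (0.92), CDH11 (0.92), a mesenchymal cadherin, and SLC10A7 (0.92). ZEB2 stood at 0.963 FPKM in hESC, 18.9 at D1 and 39.3 at D4, its peak as for ROR2. WNT5A was most like ITGA9 (0.95), EFNB1 (0.94) and NECAB3 (0.89), WNT5B like MAT2A (0.96), ALDH3A2 (0.95) and SNX9 (0.94), and WNT11 like RNF207 (0.98), SCHIP1 (0.98) and HRC (0.98), a calcium-binding protein of the sarcoplasmic reticulum. Among the 10 genes, the 6 pairs with the largest r in size were VANGL2 and PRICKLE1 (-0.88), WNT5A and ROR2 (0.86), WNT11 and CELSR1 (0.82), WNT5A and VANGL2 (-0.80), WNT5A and PRICKLE1 (0.77), and WNT5B and VANGL1 (0.74). For the receptors ROR1 and ROR2, r was -0.32. These values describe 11 points that the genes share library by library, and no test was made.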

How the data were processed

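RNA was sequenced from 30 libraries in 15 groups of 2. The authors deposited 3 tables. Values are FPKM, 1 per group, deposited by the authors; the unit was read from the naming of Cufflinks in the submitters' processing notes, the values and the column names. Those notes also list TopHat2 2.0.8b, Bowtie2 2.1.0.0 and hg19; for annotation, strand setting and scaling the sources used here say nothing. Per the file headers, the sort tables also hold the authors' log2 fold change, ratio (fold of positive over negative), test statistic (a score, not used), p-value and q-value; the smallest deposited p-value is 5e-05. The number of genes tested was recovered as q × rank / p (D3 16013 to 16649, D4 11548 to 13305; the upper values were used).

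Genes with at least 1 FPKM at 1 or more time points were kept. Differences used log2(FPKM + 1), which understates changes of low genes, and a 2-fold threshold. The planned limma test needs libraries apart and was not run. Start coordinates were made 1-based. GENCODE 29 gave gene type and exon overlap only. Sequences are from RefSeq. Fold calls and the recovered number were tested on simulated data. Python 3.11.15, pandas 2.3.3 and numpy 2.4.6 were used. Named genes are the 10, pathway genes past 2-fold (up to 4 per list and comparison), the sort marker PDGFRA, and the closest time courses (5 for ROR2, 3 per ligand); pathway genes named in a sort under 2-fold, RP11-328C8.4, RP11-129B22.1, PPHLN1 and the antisense genes were added after their values were seen. The genes and lists were chosen with earlier results of these data known.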

Additional observations from a re-analysis of the deposited data

How the results depend on the processing

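Of 54 recomputed counts of the 10 genes, 40 stayed within 1.5 times the reported count and 14 moved; no called gene changed direction. With a 1.5-fold threshold, 5 genes passed at D1 against hESC, 5 at D2 against D1, 3 at D3 against D2, 5 at D4 against D3, 1 at D5 against D4, 2 at D6 against D5, 2 at D8 against D6, 2 at D15 against D10 and 2 at CM against D15. With a pseudocount of 0.1, 3 passed at D4 against D3 (WNT11 and PRICKLE2 also) and 1 at D15 against D10 (WNT11). With rescaled columns, 2 passed at D15 against D10. With D10 as the end, 3 passed against hESC. With a 2-fold minimum, 4 remained in the D3 sort, the sort marker ROR2 included. A looser threshold passes more genes by construction, and for the others the cause was not tested. The share of all genes was not computed for the 1.5-fold, pseudocount, rescaled and 2-fold sort settings. Those counts can therefore not be set against a background. Leaving out the hESC, D15 and CM columns, chosen after seeing the data, left 8 of 10 genes with a 2-fold range, against 54.7% of all genes kept. No paired analysis was possible because the tables join the libraries of each group, and leaving out replicates was not run for the same reason. Depth is unknown, and ratios against values near 1 FPKM carry an unknown error, including those of WNT5A (1.11), ROR2 (1.66) and WNT5B (1.69) against hESC, PRICKLE2 (1.35) at D1 and WNT11 from D1 to D3.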

Other observations

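Unsorted cells can be set beside the sorted ones. At D3 the time-course value lay between the values of both populations for all 7 listed genes, and at D4 for all 5; over all listed genes with a match this was so for 66.5% and 61.3%. VANGL1 at D3 sat at the value of ROR2-negative cells (8.523 FPKM in both) and counts as between only by a difference smaller than the digits printed. The place of the others differed by gene. At D3, unsorted WNT5A (31.7 FPKM) lay 95.8% of the way from ROR2-negative to ROR2-positive cells, ROR2 (29.03) 35.0%, WNT11 (0.895) 30.5%, and PRICKLE1 (43.0) 9.66%. At D4, WNT5A (17.7) lay 30.5% of the way from PDGFRa-negative to PDGFRa-positive cells, PRICKLE2 (5.68) 92.1% and CELSR1 (5.40) 85.9%. The tables were normalized apart, and D4 cells without ROR2 belong to neither sorted population.

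WNT5A-AS1, an antisense neighbour of WNT5A that shares no exon sequence with it in GENCODE 29, stood at 0.204 FPKM in hESC, 0.255 at D1, 2.56 at D2 and 3.81 in CM. It was 5.36% to 20.3% of the WNT5A level, and r with WNT5A over the 11 time points was 0.83, with no test.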
